A study of Mus musculus with 8 samples.

Results

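In B cells that lacked both Myc and Max, transcripts that had changed alike on loss of either protein alone lay, by the median, near the level of the single losses and not at the sum of both changes. The measure of this is a contrast, taken gene by gene as the mean log2 level in double_KO minus Myc_KO minus Max_KO plus control. A contrast of 0 means that the log2 changes add up. A positive contrast means that the cells lacking both proteins lay above the sum of the single changes, and a negative contrast that they lay below it. All genes with a log2 level of 0 or more (1 RPM or more) in at least 2 of the 8 libraries entered, which were 12489 of the 15681 genes in the deposited table. RPM is estimated reads scaled to 1000000 of an effective library size, read back from the deposited log2 values, and each level in RPM includes the offset of 0.5 read that those values hold (0.0267 to 0.0326 RPM).

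The cells were mature B lymphocytes sorted from spleens of mice 8 to 10 weeks old. All 4 groups were cultured in medium with 15% FBS, activated with LPS (20 μg/ml) and IL-4 (20 ng/ml) and harvested at 72 h, so that every group had been activated. LPS stimulates B cells through a Toll-like receptor, and together with IL-4 it drives proliferation and class switching to IgG1. There were 2 libraries in each group. The control mice were heterozygous, Myc_KO lacked Myc, Max_KO lacked Max, and double_KO lacked Myc and Max together. The labels name neither the alleles, nor the Cre driver if there was one, nor which gene the controls carry in heterozygous form, and nothing in them says that replicates are separate animals. P-values therefore measure the spread between these libraries, which may be technical. Groups follow the column names and titles. The descriptions of KB32 (double_KO replicate 1) and KB44 (Myc_KO replicate 2) are the other way round, calling KB32 Myc-deficient and KB44 doubly deficient, and results that change with this are given both ways. The level of Max itself went with the titles: KB32 was at 28.6 RPM beside 31.2 RPM in the other double_KO library, and KB44 at 59.8 RPM beside 70.5 RPM in the other Myc_KO library. The replicate numbers in the descriptions went with the descriptions, whose groups each carry the numbers 1 and 2. Under the titles both double_KO libraries carry number 1 and both Myc_KO libraries number 2.

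Myc is a transcription factor that binds E-box DNA (CACGTG) as a dimer with Max, mostly at promoters of genes for growth, ribosome production and metabolism. Max also pairs with itself and with the repressors Mxd1, Mxi1, Mnt and Mga, so that loss of Max removes the partner of Myc and of its antagonists together. In lymphocytes Myc rises after activation and is known for enlarging cells before they divide. The contrast addresses whether the effect of removing one of these proteins depends on the presence of the other.

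Libraries held 14.88 to 17.91 M estimated reads (M, 1000000 reads). Of 8 B cell markers all were well expressed, for example Cd79b at 970 to 1220 RPM and Cd79a at 878 to 1160 RPM over the libraries. Markers of other cells were mostly low but not all absent. Over the libraries Cd3e reached 3.33 RPM, Klrk1 0.658 RPM, Csf1r 0.204 RPM and Lyz2 0.392 RPM, while Adgre1 reached 27.1 RPM, Cd8a 20.9 RPM, Lck 113 RPM and Thy1 323 RPM. The control libraries stood apart in some technical measures: the total divided by the effective size was 1.092 and 1.043 in them against 0.956 to 0.995 in the other 6 libraries, and transcripts of mitochondrial DNA took 5.693% and 4.927% of their reads against 2.214% to 2.962%. All 3 changes from control use these same 2 libraries, and the controls enter the contrast with a sign opposite to the one they have in each single change. Anything that set both control libraries apart, other than genotype, would shift the 3 changes alike and the contrast the other way, and cannot be told apart from genotype here.

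Myc transcript fell on Myc loss and rose on Max loss, and Max transcript fell on Max loss. Myc (chr15:61985391-61990374) was at 111 and 116 RPM in the controls, 48.3 and 55.8 RPM in Myc_KO, 192 and 176 RPM in Max_KO and 38.8 and 55.4 RPM in double_KO. Max (chr12:76937269-76962201) was at 55.0 and 54.5 RPM in the controls, 70.5 and 59.8 RPM in Myc_KO, 16.4 and 15.5 RPM in Max_KO and 28.6 and 31.2 RPM in double_KO. For both genes the libraries with the deletion lay below all others, and transcript remained in each of them, from which parts of the genes is not given. More Max transcript remained in double_KO (28.6 and 31.2 RPM) than in Max_KO (16.4 and 15.5 RPM), though this difference was not called. Whether it bears on the levels of other genes in double_KO was not tested. The contrast was -0.86 ± 0.226 (log2 ± SE, 95% interval -1.37 to -0.34, limma adjusted p = 0.0259) for Myc and 0.66 ± 0.165 (0.28 to 1.04, limma adjusted p = 0.021) for Max. Neither call was stable: it was lost for Myc without either control replicate (limma adjusted p = 0.0955 and 0.0708), without Myc_KO replicate 2 (0.0695) or without Max_KO replicate 1 (0.057), and for Max without either control replicate (0.0801 and 0.0675), Myc_KO replicate 2 (0.0602), Max_KO replicate 2 (0.0585) or double_KO replicate 2 (0.0658). Over all alternatives the adjusted p ran from 0.000158 to 0.184 for Myc and from 0.0146 to 0.114 for Max.

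The contrast differed from 0 in 3406 of 12489 genes (27.3%) by limma with Benjamini-Hochberg adjustment over all genes, at a threshold of 0.05. It was positive in 1538 (12.3%) and negative in 1868 (15.0%). Its median over all genes was 0.00. Among the called genes the median size of the contrast was 0.91 on the log2 scale, 1482 genes reached 1 and 434 reached 2. Scaling every library to the same total in place of the deposited effective sizes called 3637 genes, of which 31.9% were positive against 45.2%, and moved the median contrast of all genes to -0.13 and the medians of the 3 changes from control to between 0.13 and 0.15. The count fell to 1683 without control replicate 1, to 2155 without control replicate 2 and to 2266 without Max_KO replicate 2, rose to 4639 with the number series of the titles (30s or 40s) as a term, and stood at 3451 within the 5 libraries numbered in the 30s, among which the controls alone are replicated.

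**Figure D1:**
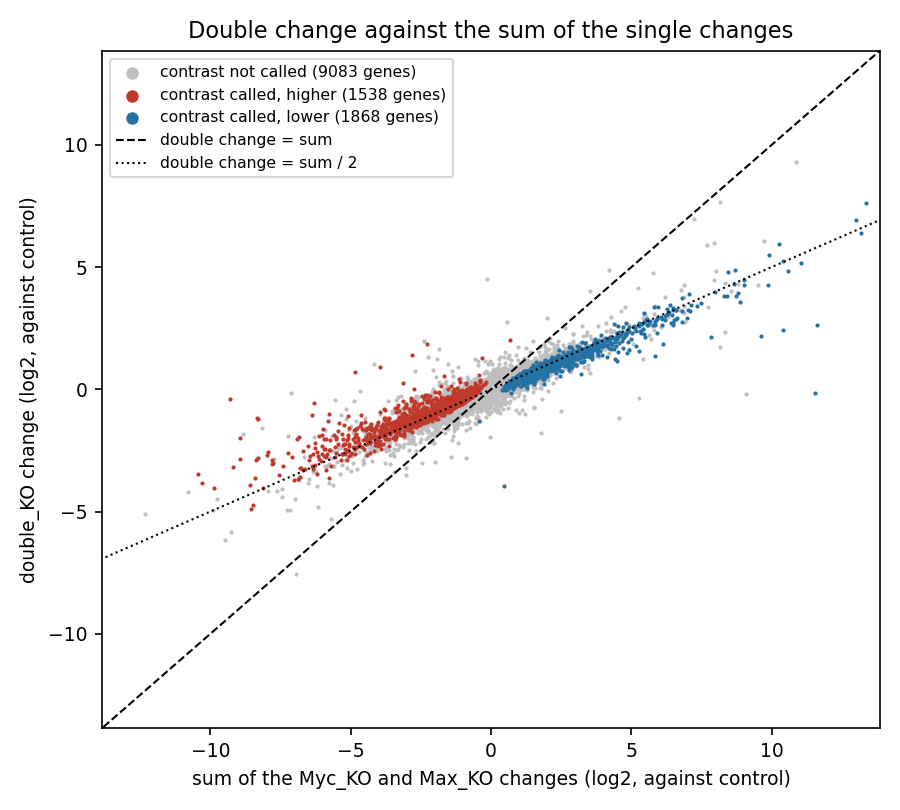
Change in double_KO (y axis, log2 against control) and sum of the Myc_KO and Max_KO changes (x axis, log2) for each of 12489 genes, coloured by the call of the contrast, with the dashed line where both are equal and the dotted line where the change is the sum divided by 2. The 1538 genes with a positive contrast lie above the dashed line, mostly on the left, and the 1868 with a negative one below it, mostly on the right.

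Set beside the larger of the single changes, 3404 of the 3406 called contrasts had the opposite sign, so that the sum overshot. The contrast holds that single change with a minus sign and shares its control libraries. An opposite sign is therefore favoured by how the contrast is built, and the sign count by itself tests nothing. The 2 exceptions were Myc, itself a deleted gene, and Stag3. For the called genes the median distance of double_KO from the larger single change was 0.21 on the log2 scale, and its median distance from the sum was 0.91. The same distances over all 12489 genes were 0.15 and 0.47. The distance from the sum is the size of the contrast itself, by which the called genes were picked. That it was large among them therefore tests nothing. The larger single change is picked from 2 noisy values and so lies too far out on average. It was the Myc_KO change for 2428 of the called genes and the Max_KO change for 978.

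Few genes set double_KO apart from a single loss. Against Myc_KO, 57 genes differed (0.456%; 52, or 0.416%, higher and 5, or 0.0400%, lower in double_KO). Against Max_KO 5 differed (0.0400%), with Trim30d, Trim5, Trim12a and Jchain higher (0.0320%) and Myc lower (0.00801%). Myc is the gene deleted in double_KO and not in Max_KO, so its fall follows from the design. No gene differed from both singles by limma's adjusted p. At an unadjusted limma p under 0.05 there were 1602 genes against Myc_KO and 755 against Max_KO. With no difference at all, a share of 0.05 of the 12489 genes would be expected there. The small counts by adjusted p moved with single libraries. With each of the 8 left out in turn, the count against Myc_KO ran from 9 (without double_KO replicate 1) to 113 (without Max_KO replicate 2), and the count against Max_KO from 3 (without either control) to 25 (without Max_KO replicate 2). With the groups of the descriptions they were 0 and 26, and without the 2 disputed libraries 29 and 24. Libraries of 1 number series deviated together across genes in the deficient groups (r = 0.363 for Myc_KO and Max_KO, 0.315 for Myc_KO and double_KO, 0.37 for Max_KO and double_KO), and with the series as a term the counts rose to 291 and 31. A missed threshold with 2 libraries a group does not show that the levels were equal.

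Sorting the genes by their calls in the single losses shows where the contrast came from. Of 12489 genes, Myc_KO changed 5671 (45.4%; 24.0% higher, 21.4% lower), Max_KO 4954 (39.7%; 22.3% higher, 17.4% lower) and double_KO 4823 (38.6%; 21.8% higher, 16.8% lower) against control by limma. The classes below use the same control libraries as the contrast, so they order the description and test nothing. In 2299 genes called higher in both single losses, the median change was 0.80 in Myc_KO, 0.71 in Max_KO and 0.71 in double_KO, against a median sum of 1.52. The contrast was called in 1763 of them, all negative. In 1720 genes called lower in both, the medians were -0.86, -0.78 and -0.75 against a sum of -1.64, and the contrast was called in 1268, all positive. The double_KO change went past the sum for 0 of 2299 and 0 of 1720 genes, and past the larger single for 361 and 270. On a linear scale, subtracting both falls from the control level would have given less than 0 RPM for 683 of the 1720 genes, so additivity is judged on the log2 scale only.

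**Figure D2:**
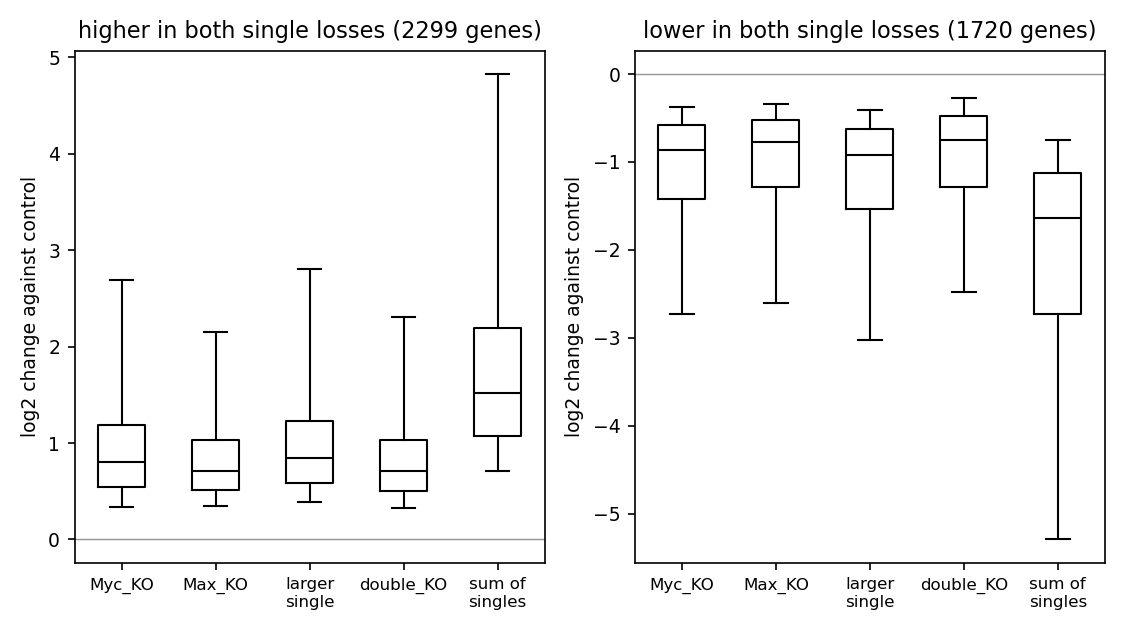
Log2 changes against control in the 2299 genes higher and the 1720 genes lower in both single losses: Myc_KO, Max_KO, the larger of the single changes, double_KO, and the sum of the single changes. Boxes span the quartiles with the median as a line, and whiskers the 5th to 95th percentile. The double_KO boxes (medians 0.71 and -0.75) sit at the level of the single losses, away from the sums (medians 1.52 and -1.64).

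Outside these classes the contrast was called less widely. It was called in 253 of 1629 genes changed in Myc_KO only, 97 of 912 changed in Max_KO only, 6 of 23 changed in opposite directions and 19 of 5906 changed in neither. The last class held Cad, which begins pyrimidine synthesis, at 218 and 203 RPM in the controls, 164 and 193 in Myc_KO, 184 and 174 in Max_KO and 218 and 246 in double_KO. Its contrast of 0.61 ± 0.147 (limma adjusted p = 0.0182) was lost without control replicate 1 (0.0787), without Max_KO replicate 2 (0.0532) and without double_KO replicate 2 (0.06), within a range of 0.00566 to 0.184 over the alternatives.

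The list counts given from here on stand beside 12.3% positive and 15.0% negative contrasts over all genes. Among genes called higher or lower in both single losses the contrast was called in 76.7% and 73.7%. How far a list count follows from the number of members changed in both single losses was not tested. Among the genes that fell in both single losses, those of ribosomal proteins, the building blocks of the ribosome and a long-known class of Myc-responsive genes, had a positive contrast in 30 of 30 genes of the list, with a median of 1.17 (0.54 and 27 genes under quantile normalization). Rps27a was at 1840 and 1690 RPM in the controls, 618 and 641 in Myc_KO, 748 and 738 in Max_KO and 734 and 748 in double_KO. Its double_KO libraries coincided with Max_KO and lay well above the 265 RPM of the sum, for a contrast of 1.48 ± 0.109 (limma adjusted p = 0.000862). Reads of ribosomal protein genes are shared with processed copies elsewhere in the genome, so single levels depend on how the authors' estimate divided them. The 13 transcripts of mitochondrial DNA, which encode respiratory chain subunits, all had a positive contrast as well, with a median of 1.14 (0.59 and 9 genes under quantile normalization). For mt-Co2, a cytochrome oxidase subunit, levels were 6260 and 4720 RPM in the controls and 1730 to 2590 RPM in the other 6 libraries. The controls differed more from each other than the libraries of any other group, and the contrast was 1.35 ± 0.201 (limma adjusted p = 0.00291).

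Glycolysis and the hypoxia response are programmes in which Myc acts beside the oxygen-regulated factor Hif1a. Of 19 glycolysis genes 17 had a positive contrast and none a negative one (median 1.71), and of 19 hypoxia genes 13 were positive and 1, Hif1a itself, was negative (median 1.97). Tpi1, the glycolytic triose phosphate isomerase, was at 1370 and 1320 RPM in the controls, 138 and 152 in Myc_KO, 908 and 468 in Max_KO and 449 and 471 in double_KO. Slc16a3, which exports lactate, was at 188 and 197 RPM in the controls, 2.91 and 2.86 in Myc_KO, 120 and 22.1 in Max_KO and 38.6 and 27.5 in double_KO. In both genes Myc_KO was lowest, double_KO lay between Myc_KO and control, and the Max_KO libraries differed widely from each other.

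The contrast was 2.72 ± 0.351 for Tpi1 (limma adjusted p = 0.00181) and 5.4 ± 0.877 for Slc16a3 (limma adjusted p = 0.00402). In Tpi1 double_KO exceeded Myc_KO by 1.67 (95% interval 1.10 to 2.24, limma adjusted p = 0.0387). Egln3, an oxygen-sensing hydroxylase, fell from 69.9 and 60.2 RPM in the controls to 1.53 and 1.74 in Myc_KO, 13.9 and 3.21 in Max_KO and 4.89 and 3.87 in double_KO, with a contrast of 4.70 ± 0.79 (limma adjusted p = 0.00456). Hif1a rose to about the same level in all 3 deficient groups, from 59.6 and 60.4 RPM to between 113 and 131 RPM, and its contrast was -1.01 ± 0.125 (limma adjusted p = 0.00157). With the groups of the descriptions the glycolysis count fell from 17 to 2 and the hypoxia count from 13 to 4. The calls of Tpi1 (limma adjusted p = 0.383), Slc16a3 (0.571) and Egln3 (0.0643) were then lost, these being the upper ends of ranges that began at 5.66e-07, 7.09e-10 and 8.11e-07. Without the 2 disputed libraries the counts were 15 and 8, and the hypoxia count fell to 6 when control replicate 1 was left out and to 7 when control replicate 2 or Myc_KO replicate 2 was.

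Lipid and nucleotide synthesis moved less far. In the cholesterol and fatty acid list 14 of 25 genes had a positive and 1 a negative contrast (median 0.68). Fdps, which makes farnesyl pyrophosphate, was at 298 and 292 RPM in the controls, 97.6 and 95.3 in Myc_KO, 160 and 136 in Max_KO and 138 and 130 in double_KO. Double_KO overlapped Max_KO and lay above Myc_KO, the sum stood at 48.2 RPM, and the contrast was 1.47 ± 0.132 (limma adjusted p = 0.000905). In the nucleotide list 11 of 23 were positive and 1 negative (median 0.41), and in the amino acid and one-carbon list 10 of 20 were positive and none negative (median 0.71). The median change in the nucleotide list was -0.22 in Myc_KO, -0.11 in Max_KO and 0.14 in double_KO. In the amino acid and one-carbon list it was -0.3, -0.39 and -0.02, so that in both lists double_KO lay above the single losses by the median. Slc1a5, a glutamine transporter, was at 377 and 348 RPM in the controls, 154 and 177 in Myc_KO, 203 and 165 in Max_KO and 205 and 206 in double_KO. The deficient groups were near each other and all below control, and its contrast was 1.30 ± 0.161 (limma adjusted p = 0.00157). Metallothionein Mt1, which binds zinc, went from 26.4 and 27.3 RPM to 1.93 to 5.90 RPM in the 6 deficient libraries, against 0.177 RPM from the sum (contrast 4.63 ± 0.436, limma adjusted p = 0.000905).

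Myc-induced genes and ribosome biogenesis genes are the lists closest to direct Myc action in the literature. In the former 17 of 24 genes had a positive and 1 a negative contrast (median 0.74). In the latter 10 of 24 were positive and 1 negative (median 0.42). The median change of the Myc-induced genes was -0.51 in Myc_KO, -0.39 in Max_KO and -0.11 in double_KO. For ribosome biogenesis it was -0.26, -0.1 and 0.08, and in double_KO 5 of 24 genes were called higher and 3 lower than control. In both lists the double_KO median thus lay above those of the single losses. The promoters of 4 genes that hold CACGTG are shown, chosen for the motif among genes of 3 patterns: Nop2 (an RNA methyltransferase of the nucleolus) and Impdh2 (guanine nucleotide synthesis) fell in both single losses, Ass1 (arginine synthesis) fell in Myc_KO only, and Stag3 (a meiotic cohesin subunit) moved in opposite directions. They are from RefSeq, build GRCm38.p6, on the plus strand, from 250 bases before the start to 50 after it, and capitals mark CACGTG, which begins 60, 110, 36 and 170 bases before the start. Nop2 lies at chr6:125131633-125131932, Impdh2 at chr9:108560186-108560485, Ass1 at chr2:31470020-31470319 and Stag3 at chr5:138280259-138280558.
Nop2: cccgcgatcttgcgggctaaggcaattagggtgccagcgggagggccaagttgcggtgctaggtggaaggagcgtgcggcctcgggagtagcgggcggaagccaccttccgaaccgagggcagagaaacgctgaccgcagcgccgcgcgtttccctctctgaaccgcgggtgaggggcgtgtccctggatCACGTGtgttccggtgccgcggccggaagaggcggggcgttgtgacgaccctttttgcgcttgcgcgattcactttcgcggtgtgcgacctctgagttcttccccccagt
Impdh2: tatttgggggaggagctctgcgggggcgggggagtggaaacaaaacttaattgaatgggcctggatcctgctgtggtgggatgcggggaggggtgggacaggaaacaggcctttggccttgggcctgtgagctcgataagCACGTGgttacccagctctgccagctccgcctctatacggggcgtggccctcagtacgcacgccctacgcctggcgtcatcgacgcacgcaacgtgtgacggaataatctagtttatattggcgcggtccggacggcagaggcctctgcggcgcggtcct
Ass1: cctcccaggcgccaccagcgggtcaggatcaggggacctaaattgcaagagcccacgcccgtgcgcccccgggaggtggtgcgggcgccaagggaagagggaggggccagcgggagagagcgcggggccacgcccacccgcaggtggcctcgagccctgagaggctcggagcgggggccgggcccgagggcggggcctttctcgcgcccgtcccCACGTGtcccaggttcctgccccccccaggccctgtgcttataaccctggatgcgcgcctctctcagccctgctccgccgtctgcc
Stag3: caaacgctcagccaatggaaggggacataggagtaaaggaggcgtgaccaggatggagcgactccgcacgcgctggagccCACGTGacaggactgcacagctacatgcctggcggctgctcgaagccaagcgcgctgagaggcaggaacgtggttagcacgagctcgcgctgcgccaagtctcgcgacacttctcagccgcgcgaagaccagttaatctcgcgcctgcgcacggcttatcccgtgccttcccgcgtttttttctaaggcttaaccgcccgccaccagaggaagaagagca

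CACGTG reads the same on both strands, and it was searched in the promoters of genes with 1 listed start. It was found in 790 of 7456 tested genes with such a promoter (10.6%) and in 7.12% of all 22862 promoters of that length. The share was 11.8% of genes with a positive contrast, 10.5% of those with a negative one and 10.4% of those not called. Among the lists it was 9 of 17 for ribosome biogenesis, 2 of 14 for Myc-induced genes, 4 of 17 for nucleotide synthesis, 0 of 15 for amino acid transport and one-carbon metabolism and 1 of 20 for ribosomal proteins. It was 3 of 14 for cholesterol and fatty acid synthesis, 2 of 11 for hypoxia and 1 of 11 for glycolysis. Mitosis had 1 of 16, DNA replication 0 of 13 and interferon-stimulated genes 0 of 17. A high share was not confined to growth lists, with 6 of 14 for lysosome and autophagy. The promoters of Nop56, Shmt1 and Atp11a, whose values are given here too, held none. A match is a string of letters and not a measured binding site.

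The genes with these promoters had the following values. Nop2 was at 142 and 127 RPM in the controls, 75.1 and 71.8 in Myc_KO, 91.1 and 77.2 in Max_KO and 102 and 98.6 in double_KO, with a contrast of 1.13 ± 0.147 (limma adjusted p = 0.00184). Impdh2 was at 390 and 359 RPM in the controls, 195 and 180 in Myc_KO, 231 and 229 in Max_KO and 246 and 252 in double_KO, with a contrast of 1.12 ± 0.112 (limma adjusted p = 0.000978). In both genes double_KO lay above each single loss and below control, though its difference from the singles was not called. Nop56, a core protein of small nucleolar ribonucleoproteins, followed the same order, with 400 and 342 RPM in the controls, 189 and 192 in Myc_KO, 212 and 202 in Max_KO and 232 and 245 in double_KO (contrast 1.16 ± 0.129, limma adjusted p = 0.00121). With the groups of the descriptions the calls of Nop2 (limma adjusted p = 0.134, the top of a range from 0.000318) and Impdh2 (0.0815, from 0.000198) were lost.

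The same regrouping left 27 of 30 ribosomal protein genes, 5 of 13 mitochondrial transcripts, 4 of 24 Myc-induced genes, 3 of 24 ribosome biogenesis genes, 5 of 25 lipid synthesis genes, 1 of 23 nucleotide genes and 5 of 20 amino acid genes with a positive contrast. Their medians stayed above 0, at 0.96, 0.84, 0.43, 0.18, 0.38, 0.05 and 0.61. Without the 2 disputed libraries the counts were 29, 10, 15, 9, 12, 7 and 11. Leaving out control replicate 1 took the Myc-induced count to 11, ribosome biogenesis to 6, nucleotide synthesis to 5 and the amino acid list to 6, and leaving out Max_KO replicate 2 took nucleotide synthesis to 7.

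**Figure D3:**
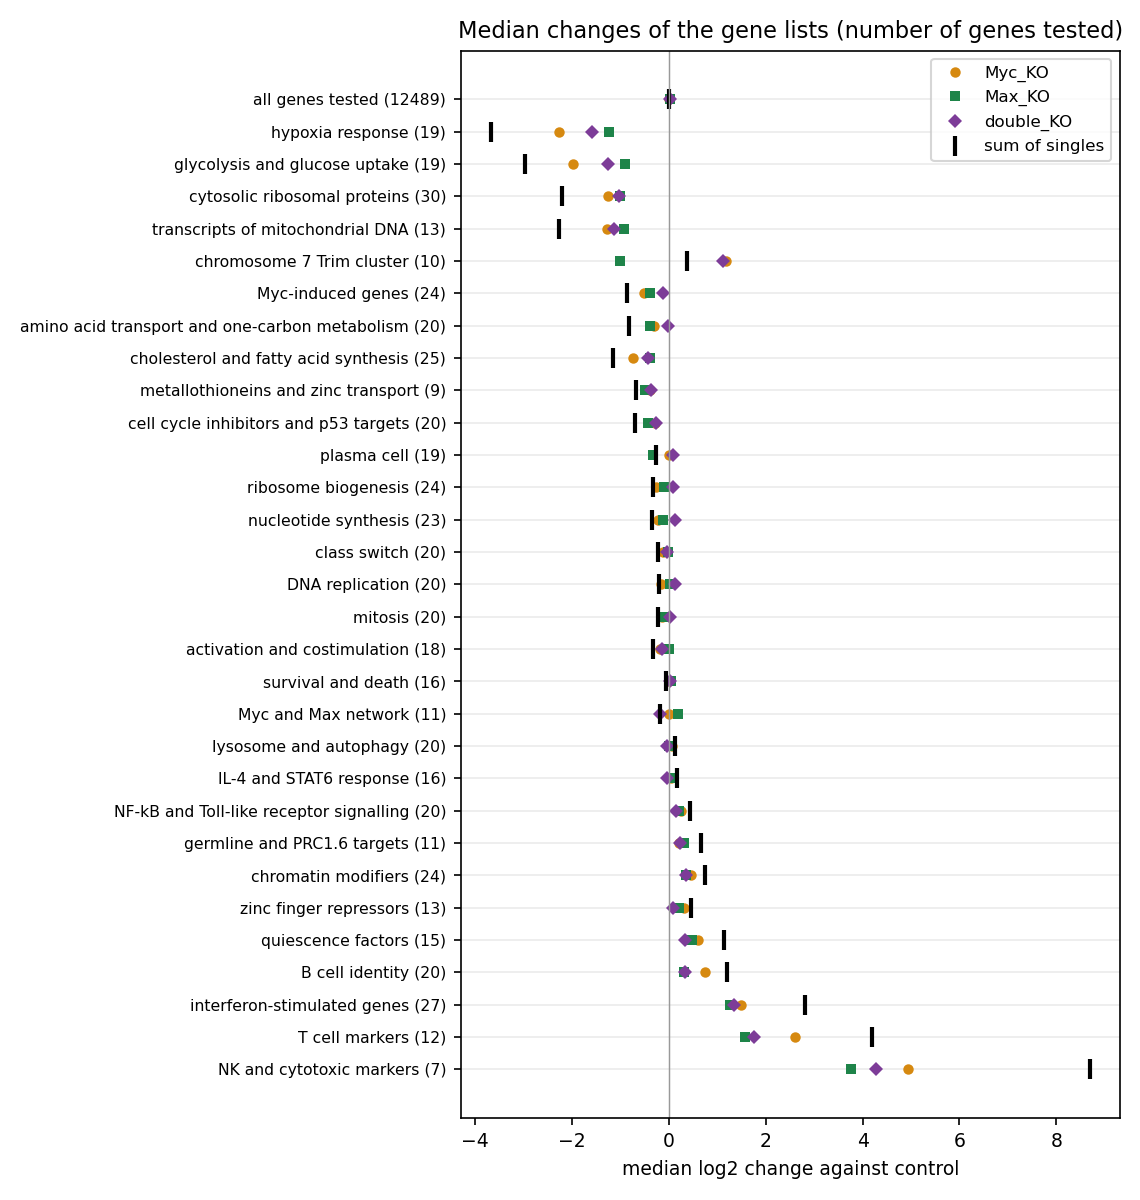
Median log2 change against control of each gene list (number of genes tested in brackets) in Myc_KO, Max_KO and double_KO, with the sum of the single changes as a bar. In the ribosomal protein list the double_KO median (-1.03) lies between those of Max_KO (-1.0) and Myc_KO (-1.25) and far from the sum (-2.20), and in the interferon list the double_KO median (1.34) lies between 1.26 and 1.5, with a sum of 2.81. In the ribosome biogenesis and nucleotide lists the double_KO medians (0.08 and 0.14) lie above 0 and those of the single losses below it.

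Of 20 mitosis genes 7 had a positive contrast and none a negative one (median 0.29), and without control replicate 1 there were 4. Of 20 DNA replication genes 2 were positive and 1 negative (median 0.29), no more than the 12.3% and 15.0% of all genes, and the 2 were not called without either control. Plk1, a mitotic kinase, was at 111 and 107 RPM in the controls and 71.2 to 87.8 RPM in the other libraries (contrast 0.71 ± 0.118, limma adjusted p = 0.00434). Pola1, the catalytic subunit of DNA polymerase alpha, went the other way, from 44.2 and 45.9 RPM to between 72.4 and 83.2 RPM in the 6 deficient libraries. Its contrast was -0.69 ± 0.118 (limma adjusted p = 0.00493).

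Genes that rose in both single losses showed the mirror image. Mbnl1, a splicing regulator, was at 218 and 220 RPM in the controls, 534 and 547 in Myc_KO, 579 and 581 in Max_KO and 539 and 500 in double_KO. All 6 deficient libraries lay between 500 and 581 RPM, where the sum called for 1430 RPM, and the contrast was -1.46 ± 0.102 (limma adjusted p = 0.000862). The double_KO level differed from Myc_KO by -0.06 (95% interval -0.22 to 0.11) and from Max_KO by -0.16 (-0.32 to 0.01). Ccnd2, a G1 cyclin, was at 579 and 540 RPM in the controls, 1520 and 1380 in Myc_KO, 1470 and 1600 in Max_KO and 1560 and 1530 in double_KO. Its 6 deficient libraries likewise lay together, for a contrast of -1.37 ± 0.125 (limma adjusted p = 0.000905).

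The survival factor Bcl2 rose from 62.9 and 60.7 RPM to 141 and 130 in Myc_KO, 139 and 139 in Max_KO and 124 and 110 in double_KO (contrast -1.38 ± 0.128, limma adjusted p = 0.000905). Hdac9, a histone deacetylase, had the larger range, with 6.88 and 9.19 RPM in the controls, 102 and 106 in Myc_KO, 53.7 and 64.7 in Max_KO and 84.5 and 66.8 in double_KO. Here double_KO lay between the single losses, while the sum stood at 769 RPM, and the contrast was -3.36 ± 0.245 (limma adjusted p = 0.000862). Of 24 chromatin modifiers 8 had a negative contrast and none a positive one (median -0.37), among them the histone methyltransferase Kmt2a, at 141 and 163 RPM in the controls, 430 and 378 in Myc_KO, 253 and 271 in Max_KO and 315 and 300 in double_KO (contrast -1.18 ± 0.143, limma adjusted p = 0.00149). Quiescence factors had 6 of 15 negative and none positive (median -0.72). Over all genes 15.0% were negative and 12.3% positive.

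B cell identity genes had a negative contrast in 11 of 20 and a positive one in none (median -0.77). Ebf1, a transcription factor that specifies the B lineage, was at 55.0 and 54.4 RPM in the controls, 143 and 178 in Myc_KO, 121 and 149 in Max_KO and 126 and 145 in double_KO. Ms4a1, which encodes CD20, was at 448 and 399 RPM in the controls and 933 to 1380 RPM in the other 6 libraries. The contrast was -1.54 ± 0.197 for Ebf1 (limma adjusted p = 0.00174) and -1.54 ± 0.2 for Ms4a1 (limma adjusted p = 0.00181), and no deficient library overlapped the controls. With the groups of the descriptions 4 of the 20 were called, and without control replicate 1 there were 6.

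Interferon-stimulated genes, which answer to antiviral signals, had a negative contrast in 18 of 27 and a positive one in none (median -1.30). Samd9l, an antiviral factor outside this list, was at 67.3 and 67.2 RPM in the controls, 338 and 341 in Myc_KO, 202 and 245 in Max_KO and 242 and 236 in double_KO. Double_KO overlapped Max_KO and lay below Myc_KO, for a contrast of -2.23 ± 0.136 (limma adjusted p = 0.000862). Ifit1, which binds foreign RNA, was at 9.86 and 10.2 RPM in the controls, 98.9 and 72.2 in Myc_KO, 45.1 and 80.4 in Max_KO and 70.8 and 69.5 in double_KO (contrast -2.86 ± 0.355, limma adjusted p = 0.00157). The summed level of the list was 1599 and 1588 RPM in the controls and 3172 to 3757 RPM elsewhere.

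Transcripts of cytotoxic cells moved with these rises. The summed level of 10 NK and cytotoxic markers was 11.4 and 8.85 RPM in the controls, 247 and 148 in Myc_KO, 60.1 and 109 in Max_KO and 105 and 146 in double_KO, and of the 7 tested 6 had a negative contrast (3 without Myc_KO replicate 1). Gzmb, a granzyme, made up much of it, with 2.21 and 1.24 RPM in the controls, 127 and 79.7 in Myc_KO, 25.2 and 53.8 in Max_KO and 53.8 and 74.7 in double_KO (contrast -5.14 ± 0.578, limma adjusted p = 0.00121). The receptor genes of this list, Ncr1, Klrd1 and Klrk1, were at 0 in both controls and above 0 in the deficient libraries, apart from Klrk1 at 0 in Max_KO replicate 1, and none reached 1 RPM. Ncr1 was highest in Myc_KO, at 0.849 and 0.588 RPM. Of 12 T cell markers 10 were called higher in Myc_KO, 7 in Max_KO and 8 in double_KO, and 7 had a negative contrast (3 without control replicate 1, Myc_KO replicate 1 or Max_KO replicate 2, and 4 without control replicate 2 or double_KO replicate 1). Over all genes 24.0% were called higher in Myc_KO, 22.3% in Max_KO and 21.8% in double_KO, and 15.0% had a negative contrast. The summed level of the T cell markers was 366 and 321 RPM in the controls against 198 to 309 RPM elsewhere. Most of the control sum was Thy1, the 1 marker with a positive contrast, which fell from 323 and 275 RPM to between 71.1 and 228 RPM. The sum therefore does not show the direction of the other T cell markers. Of 4 myeloid markers tested, 3 were higher and 1 lower in each deficient group, with 2 negative (1 or 2 with any library left out) and 1 positive contrasts. Among them Adgre1 went from 0.809 and 1.76 RPM in the controls to between 5.43 and 27.1 RPM elsewhere, and the summed level of the 6 in the table from 14.6 and 14.2 RPM to between 15.4 and 34.4 RPM. In bulk RNA, more cells of a type and more RNA per cell cannot be told apart, and the part of such cells in the interferon and other rises was not tested.

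**Figure D4:**
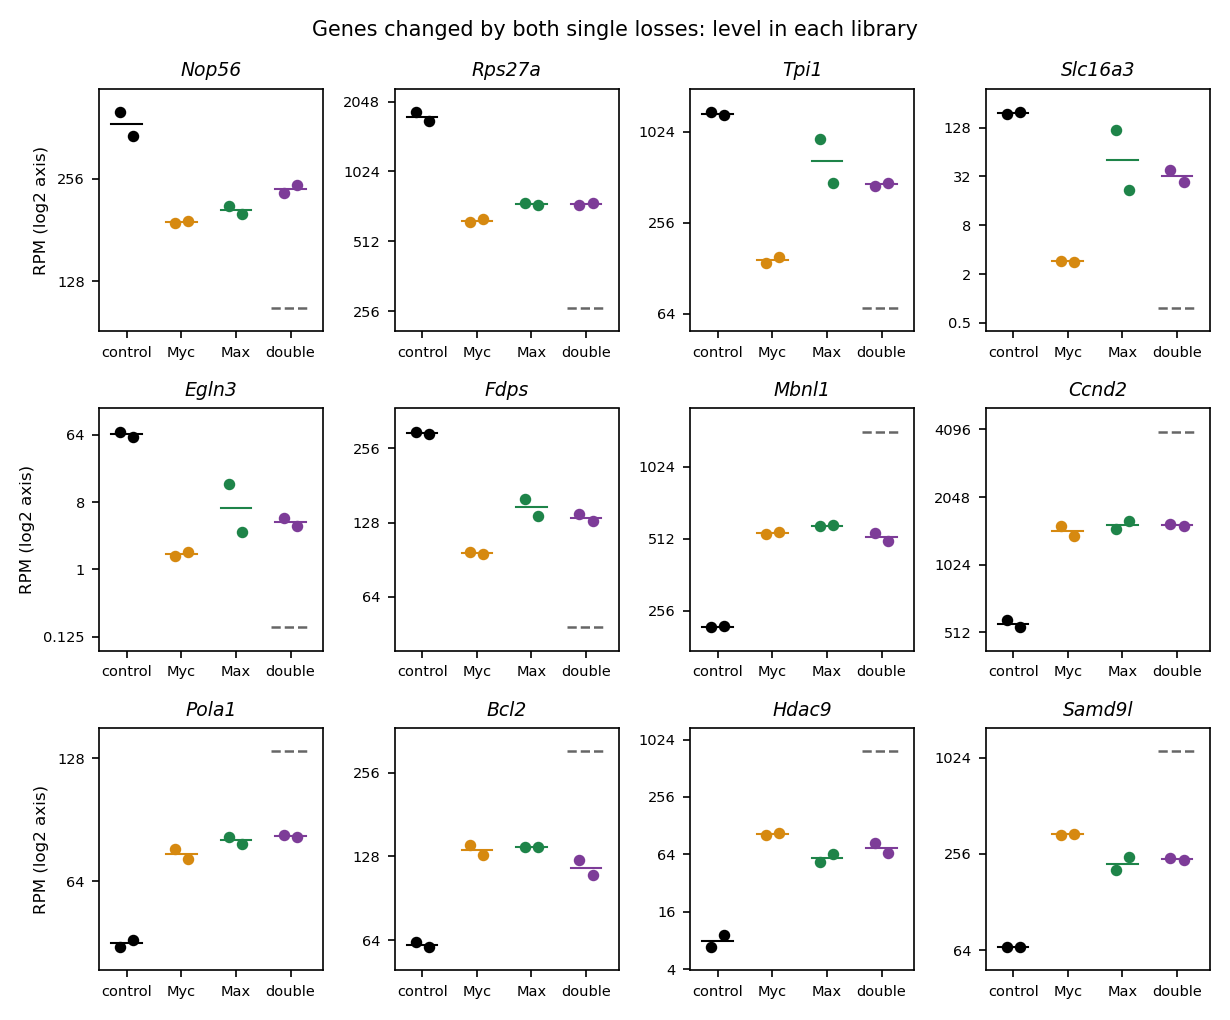
Level in each library (RPM, log2 axis) of 12 genes changed alike in both single losses, apart from the lower Myc_KO level of Tpi1, Slc16a3 and Egln3. Points are libraries, short lines the group means of the log2 levels, and the dashed line the level that the sum of the single changes gives for double_KO (107 RPM for Nop56, 1430 RPM for Mbnl1). The double_KO points lie on the control side of the dashed line in every panel.

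Some genes broke from this pattern. Of the 97 contrasts called among genes changed in Max_KO only, 75 were positive and 22 negative. Trim12a, one of a row of antiviral Trim genes (chr7:104299894-104315466), was at 50.6 and 24.9 RPM in the controls, 91.4 and 50.9 in Myc_KO, 0.468 and 0.862 in Max_KO and 82.8 and 41.0 in double_KO. Both Max_KO libraries were under 1 RPM and all others above 20 RPM, and the contrast was 5.58 ± 0.68 (limma adjusted p = 0.0015). Double_KO exceeded Max_KO 91.7-fold (limma adjusted p = 0.00456).

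Its neighbours Trim30d (0.565 and 0.76 RPM in Max_KO against 20.6 to 90.6 RPM elsewhere, contrast 4.89 ± 0.659, limma adjusted p = 0.00209) and Trim5 (0.792 and 1.41 RPM in Max_KO against 13.2 to 41.1 RPM elsewhere, contrast 3.37 ± 0.642, limma adjusted p = 0.00737) were low in Max_KO likewise. Trim30a in the same cluster did not: it was at 98.3 and 100 RPM in the controls and 176 to 229 RPM in all 6 deficient libraries (contrast -0.88 ± 0.118, limma adjusted p = 0.00204). Of the 10 genes of the cluster 4 had a positive and 4 a negative contrast. These genes are close relatives, and RSEM divides their shared reads by an estimate, so the level of each is uncertain.

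Jchain, which joins the units of IgM and IgA, was at 210 and 255 RPM in the controls, 281 and 260 in Myc_KO, 37.4 and 35.4 in Max_KO and 137 and 261 in double_KO. Both Max_KO libraries lay below the other 6, and double_KO was 5.20-fold above Max_KO (limma adjusted p = 0.0292), for a contrast of 2.15 ± 0.354 (limma adjusted p = 0.00418). Bhlha15, a transcription factor of secretory cells, had the same shape, with 19.5 and 18.4 RPM in the controls, 14.5 and 16.5 in Myc_KO, 6.14 and 5.50 in Max_KO and 14.1 and 22.1 in double_KO (contrast 1.89 ± 0.312, limma adjusted p = 0.00422). Xbp1, which expands the secretory apparatus of plasma cells, instead fell in all groups, from 793 and 680 RPM to 431 and 364 in Myc_KO, 310 and 225 in Max_KO and 375 and 417 in double_KO (contrast 1.47 ± 0.225, limma adjusted p = 0.00315). In the plasma cell list as a whole 9 of 19 genes had a positive and 1 a negative contrast (median 0.48), and without control replicate 1 there were 4 positive.

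Some of the genes named for a low p of the contrast fell in Myc_KO and less or not in Max_KO, and in those shown double_KO lay near Max_KO. Picking by this p favours genes whose double_KO level lies away from the sum. Of all 1629 genes changed in Myc_KO only, double_KO differed from Myc_KO in 12. Shmt1, a cytosolic enzyme of one-carbon metabolism, was at 90.3 and 83.7 RPM in the controls, 41.4 and 44.2 in Myc_KO, 79.6 and 72.5 in Max_KO and 95.1 and 83.2 in double_KO. Ass1 was at 58.0 and 56.1 RPM in the controls, 25.6 and 27.7 in Myc_KO, 60.6 and 58.3 in Max_KO and 53.4 and 58.6 in double_KO. Myc_KO was low in both genes, and the 3 other groups overlapped or nearly did.

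The contrast was 1.25 ± 0.147 for Shmt1 (limma adjusted p = 0.00135) and 1.01 ± 0.14 for Ass1 (limma adjusted p = 0.00227), and double_KO exceeded Myc_KO by 1.06 and 1.07 (limma adjusted p = 0.00791 and 0.00663). Atp11a, a phospholipid flippase, was at 138 and 155 RPM in the controls, 32.7 and 28.3 in Myc_KO, 79.6 and 86.9 in Max_KO and 73.8 and 77.5 in double_KO (contrast 2.13 ± 0.153, limma adjusted p = 0.000862). The IgG1 constant region transcript Ighg1 followed it, with 2670 and 2330 RPM in the controls, 881 and 762 in Myc_KO, 1570 and 1360 in Max_KO and 1480 and 1500 in double_KO (contrast 1.64 ± 0.161, limma adjusted p = 0.000918). With the groups of the descriptions, against which the Max levels of KB32 and KB44 run, these 4 calls were lost, with limma adjusted p of 0.873, 0.944, 0.448 and 0.321, the upper ends of ranges from 4.01e-05, 0.000904, 8.56e-07 and 0.000459.

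Opposite single changes were rare. Stag3 was at 22.2 and 19.4 RPM in the controls, 4.86 and 6.07 in Myc_KO, 113 and 140 in Max_KO and 74.0 and 93.4 in double_KO. The gain on Max loss outweighed the fall on Myc loss, double_KO exceeded Myc_KO by 3.94 (limma adjusted p = 0.00014), and the contrast was 1.33 ± 0.248 (limma adjusted p = 0.0066). Ptprs, a receptor phosphatase, was at 46.9 and 47.2 RPM in the controls, 13.7 and 9.75 in Myc_KO, 90.2 and 85.4 in Max_KO and 62.1 and 53.8 in double_KO (contrast 1.42 ± 0.228, limma adjusted p = 0.00385). With the groups of the descriptions both contrasts turned negative and were not called, at -2.27 (limma adjusted p = 0.429, within a range of 0.00025 to 0.429) for Stag3 and -1.25 (0.465, within 0.000184 to 0.465) for Ptprs.

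A few genes chosen after their values were seen had changes near the sum. Rnf17, a germline Tudor protein, was at 1.15 and 1.06 RPM in the controls, 0.751 and 0.775 in Myc_KO, 6.58 and 5.28 in Max_KO and 3.33 and 4.80 in double_KO, with a contrast of -0.03 ± 0.469 (95% interval -1.10 to 1.05). Ung, which removes uracil from DNA, was at 39.4 and 36.8 RPM in the controls, 31.3 and 31.5 in Myc_KO, 74.4 and 72.6 in Max_KO and 75.3 and 60.4 in double_KO, with a contrast of 0.16 ± 0.168 (-0.23 to 0.54). Both rose with Max loss whether or not Myc was present, and double_KO exceeded Myc_KO by 2.39 for Rnf17 and 1.10 for Ung (limma adjusted p = 0.0286 and 0.0119). Rrp12, a ribosome biogenesis factor, behaved alike, with 49.5 to 60.0 RPM in the controls and Myc_KO and 106 to 114 RPM in Max_KO and double_KO (contrast 0.02 ± 0.15, -0.32 to 0.36). The germline list, to which Stag3 and Rnf17 belong, had 1 positive and 1 negative contrast among 11 genes. This is no larger a share than the 12.3% and 15.0% of all genes.

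**Figure D5:**
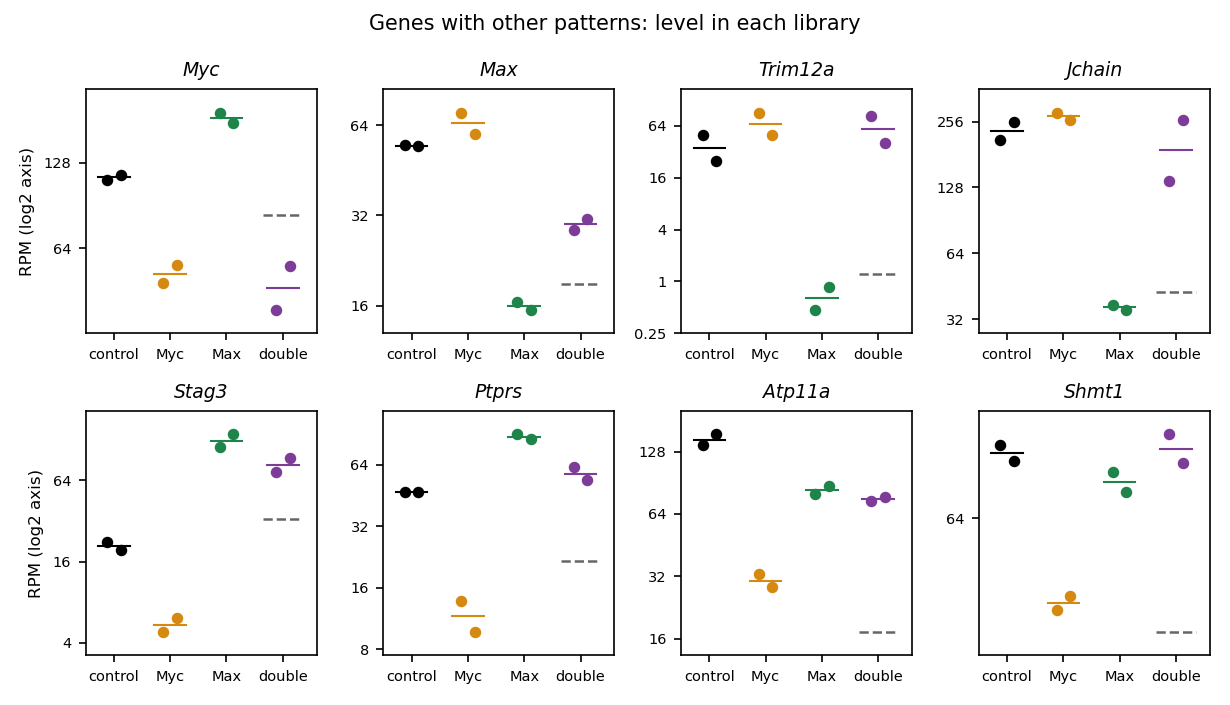
Level in each library (RPM, log2 axis) of Myc, Max and 6 genes in which the single losses differed, drawn as points with group means of the log2 levels as short lines and the level from the sum of the single changes as a dashed line. Trim12a and Jchain are low in Max_KO only (0.468 and 0.862 RPM, and 37.4 and 35.4 RPM), Atp11a and Shmt1 lowest in Myc_KO, and Stag3 and Ptprs move in opposite directions.

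Of the Myc and Max network list, which includes the deleted genes Myc and Max, 11 members were tested. Contrasts were positive in 3 (Max, Mxd1 and Mxi1) and negative in 2 (Myc and Mga), with a median of -0.04. Over all genes 12.3% were positive and 15.0% negative. Mga, a repressor that brings Max to germline genes, was at 64.3 and 70.6 RPM in the controls, 141 and 136 in Myc_KO, 178 and 210 in Max_KO and 185 and 200 in double_KO. Double_KO and Max_KO overlapped, above Myc_KO and control, and the contrast was -1.05 ± 0.146 (limma adjusted p = 0.00229). Mnt, another repressor, was at 22.4 and 28.5 RPM in the controls, 22.8 and 38.1 in Myc_KO, 79.3 and 91.0 in Max_KO and 67.7 and 78.2 in double_KO, and its contrast of -0.44 (95% interval -1.20 to 0.31) was not called (limma adjusted p = 0.348).

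Mxd1, which replaces Myc on Max in differentiating cells, fell from 37.7 and 37.9 RPM to 15.5 and 17.2 in Myc_KO, 9.19 and 13.7 in Max_KO and 13.6 and 16.3 in double_KO (contrast 1.62 ± 0.283, limma adjusted p = 0.00529). Mxi1, its relative, fell from 36.2 and 43.1 RPM to 9.43 and 7.33 in Myc_KO, 25 and 15.4 in Max_KO and 14.8 and 13.5 in double_KO. Its contrast of 1.77 ± 0.338 (limma adjusted p = 0.00736) was lost with the groups of the descriptions (0.295, within a range of 0.00153 to 0.295). Mxd3, Mxd4, Mlx, Mlxip and Mycl had contrasts between -0.56 and 0.31 that were not called.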

How the data were processed

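The deposited table holds log2 values, made by the authors from estimated reads; CASAVA 1.8, cutadapt, RSEM 1.2.3 and build GRCm38 are named in the submitters' processing notes, while any filter, strand setting or annotation is not given in the sources used here. By their steps, the values are log2 of estimated reads plus 0.5, scaled to an effective library size, so a change is relative to the bulk of a library's genes and not to the cell. The design assumed this unit. Genes with log2 of 0 or more in at least 2 of 8 libraries were kept. One limma 3.58.1 model (R 4.3.3; lmFit, eBayes with trend; 4 residual and 4.23 prior degrees of freedom) of the 4 groups gave every contrast, two-sided, with Benjamini-Hochberg adjustment over 12489 genes at 0.05. The script was tested on simulated data. Symbols and coordinates are from GENCODE vM21 (GRCm38), by identifier: 15622 genes matched and 59 did not.

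Members and the 32 lists (598 entries, from textbook knowledge) were chosen with earlier results of these data known. Named genes were the Myc and Max network, the 12 highest and 12 lowest called contrasts, up to 3 per list by lowest p, and up to 4 per class of single calls, at a group mean of log2 2 or more, leaving out predicted genes and receptor segments; part of these is given. Rnf17, Ung and Rrp12 were added after their values were seen. Alternatives were the descriptions' groups, dropping the disputed libraries, a replicate block, the number series of the titles, other scalings, pseudocount, filters, variance models and threshold, and each library left out. The subset of libraries numbered in the 30s and the list counts under each setting were chosen after seeing the data. No column was left unused (0). Depth was 14.88 to 17.91 M estimated reads a library; 2 libraries a group limit precision. Promoters are RefSeq (GRCm38.p6). pandas 2.3.3, numpy 2.4.6 and matplotlib 3.10.9 under Python 3.11.15 were used.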

Additional observations from a re-analysis of the deposited data

Results flagged for a closer look

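The change on loss of Max differed between cells with and without Myc in 3406 of 12489 genes, which is the test of the contrast itself (limma, Benjamini-Hochberg adjusted). In 4 of the 161 named genes, loss of Max lowered the transcript when Myc was present and raised it when Myc was absent, both past the threshold. The other genes were not searched for this. Tpi1 had a contrast of 2.72, Atp11a of 2.13 and Ighg1 of 1.64. Mgarp, a mitochondrial protein gene of the hypoxia list, had a contrast of 6.98, but its Myc_KO libraries held 1 estimated read between them against 48 in double_KO, a ratio of 45.2 with an exact 95% interval of 7.74 to 1.82e+03 that covers counting error only and not the spread between libraries. All 4 calls were lost with the groups of the descriptions, where the Mgarp contrast was 3.01 (limma adjusted p = 0.408, the top of a range from 3.45e-06).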

How the results depend on the processing

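The number of called contrasts (3406) was within 1.5 times of its main value with the groups of the descriptions (2596, of which 1976 were called in the main analysis and all of these in the same direction), without the 2 disputed libraries (2351), with a term for the number series (4639), within the 30s series (3451), and under each other scaling, pseudocount, filter and variance model (2643 to 3637). Without the 2 disputed libraries the negative contrasts fell from 1868 to 1242. At a threshold of 0.01 there were 1440 (586 positive, 854 negative), and 3516, 2787 and 2740 genes in Myc_KO, Max_KO and double_KO against control, with 10 against Myc_KO and 3 against Max_KO. With 1 library left out the contrast was called in 1683 to 3333 genes (649 to 1548 positive, 1034 to 1785 negative), Myc_KO against control in 3353 to 5612, Max_KO in 2654 to 5027 and double_KO in 2654 to 4931, double_KO against Myc_KO in 9 to 113 and against Max_KO in 3 to 25; where a group is left with 1 library, that library is assumed to vary like the others. Double_KO differed from Myc_KO in 0 genes with the groups of the descriptions, 29 without the disputed libraries, 291 with the number series term, 617 within the 30s series and 9 without the variance trend; against Max_KO the numbers were 26, 24, 31, 346 and 0, and 1 with voom weights. Apart from the fewer libraries or stricter threshold, the cause was not tested.

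The replicate numbers of the descriptions do not pair the samples under the titles, where both double_KO libraries carry number 1 and both Myc_KO libraries number 2. With the groups of the descriptions each group carries 1 and 2. Same-numbered control and Max_KO libraries deviated with r = -0.105 across genes, while deficient libraries of 1 number series deviated together (r = 0.315 to 0.37). With these numbers as a replicate block and the groups of the titles 1294 contrasts were called (515 positive, 779 negative), and 1 and 3 genes differed from Myc_KO and Max_KO. In that fit the block coincides with the group for Myc_KO and double_KO, so only the control and Max_KO libraries estimate it. Of 161 named genes 128 were called, and 62 of these lost neither call nor direction in the settings they were tested in (19 to 21 each; the threshold of 0.01 was applied to counts only). Under the groups of the descriptions 51 lost the call and 4 reversed: Stag3 to -2.27, Ptprs to -1.25, Apex1 to -0.45 and Camk2a to -0.38, none of which was then called.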
